A study of Mus musculus with 12 samples.

Results

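Leptin (Lep), neuronatin (Nnat), the prolactin receptor (Prlr) and gp130 (Il6st) are genes for a fat hormone, a small membrane protein and a pair of cytokine receptor subunits, and their transcripts held 5 of the 739 sites in the authors' tables of differential m6A. The sites were chosen by gene name, as every row named Lep, Nnat, Prlr or Il6st in both tables. The tables named 574 genes. Because a gene entered only through a difference between cold and thermoneutral mice, the folds, p-values and false discovery rates (FDR) given for these sites describe that choice and are tested no further. Lep, Nnat and Il6st each had 1 site, lower in cold. Prlr had 1 site lower and 1 site higher in cold, in the same exon.

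Young adult male C57BL/6 mice (C57BL/6J in the study's methods) spent 7 days either in the cold, at 4 °C, or at the thermoneutral temperature of 30 °C, and the fat pad under the skin of the groin (inguinal white adipose tissue, iWAT) was then taken. The methylated RNA base m6A (N6-methyladenosine) was measured by MeRIP-seq, in which RNA fragments bound by an anti-m6A antibody are sequenced (m6A IP), and so is RNA left without the antibody step (input). There were 3 libraries of each kind at each temperature, 12 in all. No group carried a transgene or a deletion. The labels do not say whether a library was 1 mouse or a pool. The pad was taken whole, so fewer cells of a type and less RNA per cell cannot be told apart.

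Leptin is the hormone by which white adipocytes signal the size of the fat store. Its receptor, the prolactin receptor and gp130 belong to the same family of cytokine receptors, which have no kinase of their own and signal through JAK kinases and STAT transcription factors. The long form of the prolactin receptor carries the whole signalling tail, and short forms made by alternative splicing lack most of it. gp130 is the shared signalling subunit of the receptors for IL-6, IL-11, LIF, oncostatin M and related cytokines. Neuronatin is a small membrane protein from an imprinted gene that is transcribed from the paternal copy, known from brain, pancreatic islets and fat. In mRNA, m6A is most frequent near stop codons and in 3′ UTRs, within the motif DRACH, in which D stands for any base but C, R for a purine and H for any base but G. Proteins that bind m6A there affect the decay and translation of the transcript.

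The sequences below carry the candidate m6A motifs of the 5 sites, in RefSeq's GRCm38 genome (mm10) on the plus strand, on which all 4 genes lie. For the sites of Lep, Nnat and Il6st, the GGAC nearest the middle of the site is shown in capitals. For the lower Prlr site the window opens with the TGA stop codon and capitals mark its single GGAC. The higher Prlr site has no GGAC, so the DRACH nearest its middle is in capitals.
Lep, lower, chr6:29073441-29073464: atgttttattGGACacttggtatg
Nnat, lower, chr2:157561999-157562022: ccagcagaatGGACattctgacat
Il6st, lower, chr13:112508957-112508980: tacgtaagcaGGACaatgtgacgt
Prlr, lower, chr15:10329265-10329294: tgagagctagacttatGGACagattgacta
Prlr, higher, chr15:10333439-10333463: gtttcttttgTGACTttttttggct
A motif match is a description of the sequence and not a measured position of the mark. In the windows of Lep, Nnat and Il6st and of the lower Prlr site, the base after the capitals is an A.

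Lep gave the site with the smallest fold of the 5. The site (chr6:29073082-29073877, 796 bp) was 4.96-fold lower in cold, a log2 fold of 2.31, with p = 3.31e-06 and FDR = 2.62e-05 in the authors' deposited table. It ranked 391 of the 438 lower sites by fold and 425 by p, and 10.7% of them had a smaller fold. The smallest fold listed for any site was 4.01. The median fold of all lower sites was 20.9.

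The Lep site lay at the far end of the transcript. It began 1900 bases past the stop codon in exon 3 of 3 and ran to the annotated end of Lep-201, 2695 bases past the stop codon, so it took up 26.1% of the last exon. Its midpoint was 85.2% of the way along the 3′ UTR. The site held 3 GGAC and 17 DRACH sequences, or 21.4 DRACH per kb, and the median over listed sites in a single exon was 21.9 per kb. It also held the AATAAA hexamer, the common signal for cleavage and polyadenylation, 14 bases before the RefSeq end of the transcript. That hexamer is given because it marks the end of the site, with the hexamer in capitals.
Lep, hexamer, chr6:29073847-29073872: tgtcaattcaAATAAAttaatgatgc

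The Nnat site covered nearly the whole last exon. It (chr2:157561642-157562525, 884 bp) was 31.8-fold lower in cold, a log2 fold of 4.99, with p = 1.11e-07 and FDR = 1.12e-06 in the authors' table. Among lower sites it ranked 198 by fold, near the middle, and 302 by p. On NM_010923, the transcript named in the table, which encodes 81 residues, the site began 8 bases past the stop codon, ended with the transcript at 891 bases and covered 89.8% of exon 3 of 3. The site held 5 GGAC and 12 DRACH sequences and 1 AATAAA. Its 13.6 DRACH per kb were below the median of 21.9 over listed sites in a single exon.

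Which part of Nnat the site is called depends on the isoform. It overlapped 9 of 10 GENCODE transcripts, 7 of the 8 coding ones among them. In the forms of 125 and 129 residues the reading frame runs on to 157561771 on the chromosome, so that the first part of the site is coding there. On Nnat-201, the GENCODE transcript with the longest coding sequence, the annotated end lies before the midpoint of the site. Nnat lies in an intron of Blcap, which is transcribed from the opposite strand, and a predicted microRNA gene, Gm23134, lies within the site, also on the opposite strand. The kit is not stated to keep strand, so reads from both strands cannot be told apart. Blcap itself had no listed site.

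Il6st gave the largest fold of the 4 lower sites. The site (chr13:112508802-112509260, 459 bp) was 104-fold lower in cold, a log2 fold of 6.70, with p = 1.25e-10 and FDR = 3.90e-08 from the authors. It ranked 116 of 438 by fold and 24 by p. Of the lower sites, 73.5% had a smaller fold. No library value was analysed, so the precision of this fold is unknown.

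The Il6st site lay beyond the end of the RefSeq transcript. RefSeq ends gp130 mRNA 2415 bases past the stop codon, at 112506860, and the site began 1942 bases further on. It was exonic in 1 of 10 GENCODE transcripts, Il6st-203, whose last exon (17 of 17) has a 3′ UTR of 5641 bases. There the site lay 4357 to 4815 bases past the stop codon, with its midpoint 81.3% of the way along. The RefSeq transcript and Il6st-203 share the stop codon and encode 917 residues each. The site held 1 GGAC and 4 DRACH sequences, 8.71 DRACH per kb, below the median of 21.9 over listed sites in a single exon. In the 3′ UTR of Il6st-203 an AATAAA begins 35 bases past the stop codon and another 40 bases before the RefSeq end. After that end 3 more follow, 1 of them 70 bases past the site. The hexamer near the RefSeq end is shown because it separates the RefSeq 3′ UTR from the longer 3′ UTR of Il6st-203.
Il6st, hexamer at the RefSeq end, chr13:112506810-112506835: aaaaccgtctAATAAAgctagttctg

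**Figure D1:**
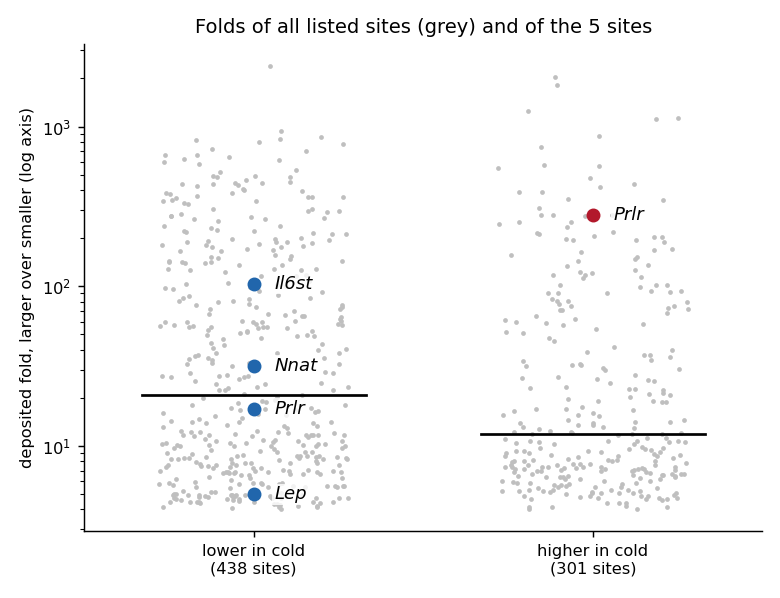
The deposited fold (larger over smaller group, log axis) of each of the 438 sites listed lower and the 301 listed higher in cold (grey points, spread sideways only to separate them), with the median of each direction as a black line. The sites of Lep, Nnat, Prlr and Il6st are coloured. Lep, at 4.96, sits near the bottom of the lower sites, Prlr and Nnat lie on either side of the median of 20.9, Il6st is above them at 104, and the higher Prlr site is far above the median of 11.8.

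The opposite sites of Prlr were both in exon 10 of 10 of the long form (NM_011169, 608 residues). The lower site (chr15:10329182-10329560, 379 bp) was 17.0-fold lower in cold, a log2 fold of 4.09, with p = 1.16e-08 and FDR = 1.98e-07 from the authors. The higher site (chr15:10333302-10333680, 379 bp) was 280.9-fold higher, a log2 fold of 8.13, for which the authors give p = 4.43e-09 and FDR = 1.45e-07. The larger fold is a whole multiple of 0.1, as were 109 of the 739 listed folds (to within 1e-06), and its size is best not read as a precise value. By fold the lower site ranked 231 of 438 and the higher site 20 of 301. By p the lower site ranked 177 and the higher site 41.

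The sites differed in where they lay. The lower site held the stop codon, with 86 coding bases up to the last base of that codon and 293 bases of 3′ UTR after it. The higher site lay 4035 to 4413 bases past the stop codon, with its midpoint 54.5% of the way along a 3′ UTR of 7753 bases. Its last base was 3340 bases before the end of the transcript. Between them were 3741 bases without a listed site. Of 11 AATAAA hexamers after the stop codon, 7 lay between the sites and 4 after the higher one. The first began 28 bases past the end of the lower site, and its window is given because it would separate the sites if used.
Prlr, first hexamer, chr15:10329578-10329603: tattcaatgaAATAAAagcacatcgc

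The sites also differed in their sequence. The lower site held 1 GGAC, 14 bases past the stop codon, and 10 DRACH (26.4 per kb). The higher site held no GGAC and 7 DRACH (18.5 per kb), and both were 38.3% GC. Both also held a stretch of adenosines, and the 30 bases richest in A of each are given because several DRACH matches of the lower site lie in or next to its stretch. Capitals are not used in them.
Prlr, lower, A-rich, chr15:10329374-10329403: ataaaaaaaaaaaacaaaaagaaaaaaaaa
Prlr, higher, A-rich, chr15:10333601-10333630: taaccctccaaaaaaaaaaaaaaaaaaaaa
The first has 27 A, the longest run being 12, and the second has 23 A with a run of 21 up to its last base. At the other sites the richest 30 bases had 13 to 17 A.

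The transcripts that hold each Prlr site differ in the annotation. The lower site overlapped Prlr-202, the long form, and Prlr-201, a transcript with a retained intron that ends 121 bases past the stop codon, inside the A-rich stretch, and holds 207 bases of the site. The higher site was exonic in Prlr-202 alone of 12 GENCODE transcripts. The last exons of the short forms of 292, 303 and 310 residues begin at least 4754 bases past the end of the long form, so neither site lies in them. A gene model on the same strand, Gm21973, spans both sites, and neither is in 1 of its exons. How much of each Prlr transcript the mice made was not analysed here.

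**Figure D2:**
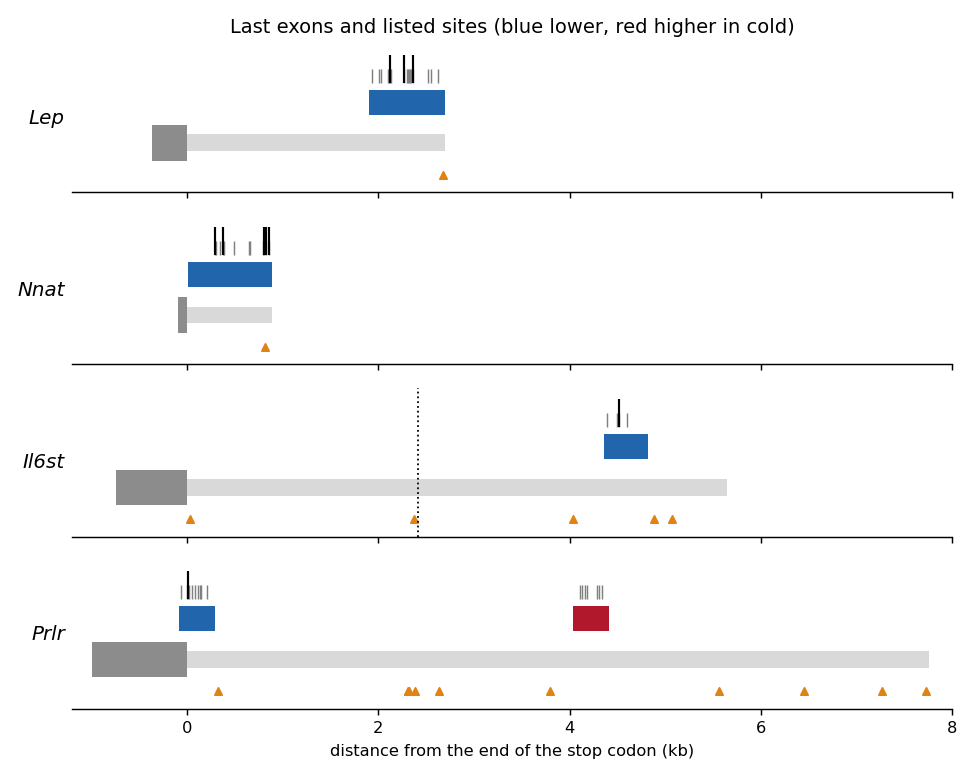
Last exons of the 4 genes by distance from the end of the stop codon in kb, with coding sequence as dark and 3′ UTR as light boxes and the listed sites as bars (blue lower, red higher in cold). Ticks above the sites mark the m6A motifs searched (tall black GGAC, short grey DRACH), orange triangles the polyadenylation hexamers, and the dotted line the RefSeq end of Il6st, which the site lies past by 1942 bases. The Lep and Nnat sites end with their transcripts, and the Prlr sites are 3741 bases apart.

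Set beside all listed sites, the 5 sites lay at very different places, with midpoints from 1.34% to 85.2% of the way along the 3′ UTR. On the transcripts named in the tables all 5 midpoints were in the 3′ UTR. By the coding transcript with the longest coding sequence it was 4, all but that of Nnat, and by that rule 62.3% of the 653 sites that could be placed were in the 3′ UTR. Along the 3′ UTR the median position of listed sites was 34.9% and the quartiles were 14.6% and 64.0%. The lower Prlr site, at 1.34%, was before the first quartile. The sites of Lep and Il6st were past 80%, as were 31 of the 244 lower sites in a 3′ UTR, or 12.7%. The Il6st site and the higher Prlr site were more than 4000 bases past the stop codon, as were 19 sites in all. Holding the stop codon, as the lower Prlr site did, was seen in 25.6% of placed sites.

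The motif content is best read beside that of the other listed sites. For each length, the middle of every listed site that lay in a single exon and was at least as long was searched, the sites described here included. GGAC, sought on the transcribed strand, was in 100% of 58 windows as long as the Lep site and of 42 as long as the Nnat site, in 86.2% of 275 as long as the Il6st site and in 79.3% of 493 as long as the Prlr sites. DRACH, which takes in GGAC unless a G follows, was in every one of these windows. Of listed sites in a single exon, 15.9% held no GGAC, as the higher Prlr site did. AATAAA was in 27.6%, 26.2%, 22.5% and 18.9% of the windows in the same order.

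**Figure D3:**
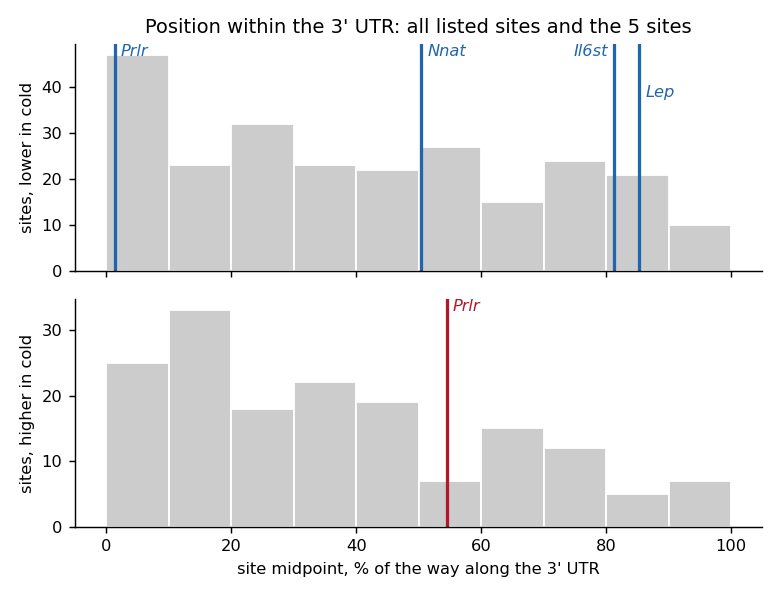
Number of listed sites with their midpoint in each bin of 10 percentage points along the 3′ UTR (grey bars, by the transcript with the longest coding sequence), for sites lower (top) and higher (bottom) in cold, with the sites of the 4 genes as coloured lines (by the transcript named in the table). The lower Prlr site is at 1.34%, Nnat at 50.4%, Il6st at 81.3%, Lep at 85.2% and the higher Prlr site at 54.5%.

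Of all listed sites, 59.3% were lower in cold, and 4 of the 5 sites described here were. The choice of genes used this contrast, so nothing is read from that count. Genes with sites in both directions made up 2.79% of the listed genes, 16 of 574, and Prlr was 1 of them. In 8 of the 16 the strongest site of each direction lay in 1 exon. In 5 of these the sites did not overlap, as in Prlr, Arid5b (3541 bases apart), Igf1r (4441) and Zfp12 (2721), and in Mreg, Nrbp2 and Prune2 they did. The higher fold was the larger in 7 of the 16, Prlr included.

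By the Euclidean distance between the 2 log2 folds over the 15 other genes, the pair of Prlr folds was nearest to that of Mreg, a regulator of melanosome and lysosome transport, at 0.51. Kat6b, a histone acetyltransferase, was 1.26 away and Spen, a transcriptional repressor, 1.60. Mreg was 352.8-fold higher at one site and 22.3-fold lower at the other. The higher folds of Mreg, Kat6b (156.1) and Spen (236.4) are, like that of Prlr, whole multiples of 0.1, so these distances are as imprecise as those folds. Among the 298 other genes with a single site, lower in cold, those nearest to Lep in fold were Acvr1 (4.95), Htra3 (4.93) and Bach1 (4.995). Those nearest to Nnat were C3ar1 (32.6), Gpc3 (33.2) and Zfp704 (34.95). Those nearest to Il6st were Pygo2 (104.8), Slc16a9 (101.2) and Prrg3 (101.2).

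**Figure D4:**
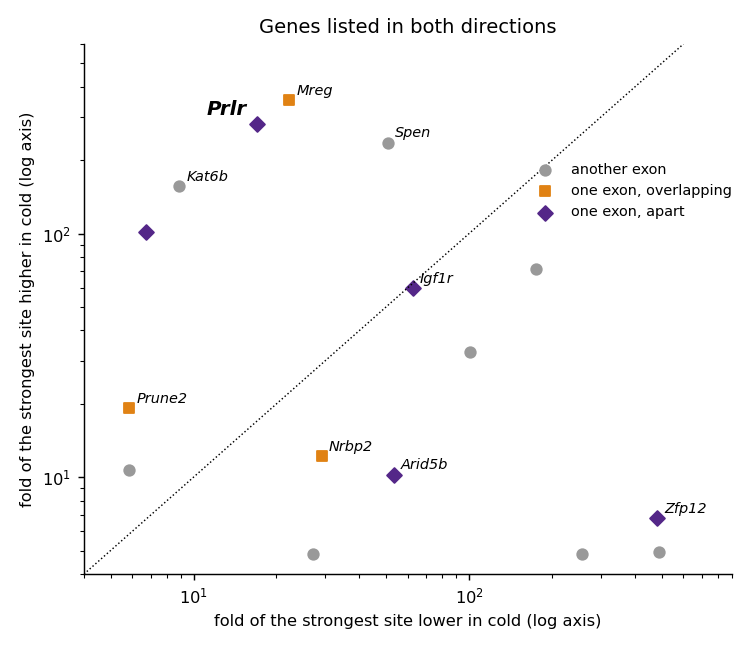
Deposited fold of the strongest higher site against that of the strongest lower site for the 16 genes listed in both directions (both axes log, dotted line where they are equal). Purple diamonds are genes with both sites in 1 exon and apart, orange squares genes whose sites overlap, and grey circles genes whose sites are in different exons. Genes named in the text are labelled. Prlr, at 17.0 lower and 280.9 higher, sits beside Mreg above the line.

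The lists of ligands, receptors and signalling genes around these 4 are given beside the share of all genes. Among 21900 annotated coding genes, 2.59% had a listed site, 1.66% a lower and 1.01% a higher one. Of 12 genes for ligands and receptors of the leptin, prolactin and growth hormone family, Lep and Prlr had a site and the other 10, the leptin receptor among them, had none. None of 11 gp130 ligands had a site, and of 7 genes for gp130 and its partner receptors only Il6st did. Lep, Prlr and Il6st were chosen from genes with a site, so nothing is read from their share of these lists. Of 11 JAK and STAT genes, Stat2, a mediator of interferon signalling, had a site, 4.45-fold lower in cold (FDR = 1.36e-06) in the coding sequence. None of 19 inhibitors and adaptors of the pathway, such as the SOCS genes, had one. A gene without a listed site may have had m6A that did not differ, a smaller difference or too few reads to be listed.

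Of 29 white adipocyte markers 5 had a site, all lower, where 62.9% of all listed genes with a single direction were lower. Lep and Nnat are 2 of the 5 and were chosen on this contrast. The others were Sncg, a synuclein abundant in white adipocytes (12.9-fold, FDR = 2.69e-06), Nrip1, a corepressor that restrains oxidative genes (9.66-fold, FDR = 2.04e-06), and the growth factor Igf1 (8.37-fold, FDR = 5.34e-07). The median log2 fold of the 5 was 3.27, against 4.20 for the strongest sites of all listed genes. Of 30 secreted hormones and cytokines of fat, Lep and Igf1 were lower and Apln, the peptide hormone apelin, was 277.5-fold higher (FDR = 1.91e-07), again a whole multiple of 0.1. Of 30 imprinted genes only Nnat had a site, or 3.33%, where 2.59% of all annotated coding genes did. Nnat was chosen from genes with a site, so nothing is read from that count. Neuronatin resembles the small regulators of the SERCA calcium pumps. Of 7 genes for pumps and regulators Atp2a1, the pump of fast skeletal muscle, had a site, 16.8-fold higher (FDR = 2.94e-06). Atp2a1 is also on the list of skeletal muscle markers and is counted there among the genes listed higher.

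The annotation that the authors deposited beside each site places 3 of the 4 genes in signalling pathways. Of all listed genes with a single direction, 62.9% were lower, and the genes described here were chosen on this contrast. Pathway terms stood beside 245 of the listed genes, and the share lower among those 245 is not given here. Under the term for Jak-STAT signalling stood 8 listed genes, 5 of them lower only. These were Lep, Il6st, Stat2, the PI3K regulatory subunit Pik3r1 (123-fold) and the acetyltransferase Ep300 (5.51-fold). Listed higher only were the transcription factor Myc (40.03-fold) and the PI3K catalytic subunit Pik3cg (61.7-fold), and Prlr was in both directions. Under prolactin signalling stood Prlr, Pik3cg and Pik3r1 beside the transcription factor Foxo3 (406.3-fold lower) and the kinase Src (144-fold lower). Under the adipocytokine term, Lep was the lower gene of 6. The other 5 were higher, namely Cpt1b, the importer of fatty acids into mitochondria in muscle and brown fat (118-fold), the receptors Ppara (9.82-fold) and Rxra (10.3-fold), the coactivator Ppargc1a (17.0-fold) and the glucose transporter Slc2a1 (5.04-fold).

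**Figure D5:**
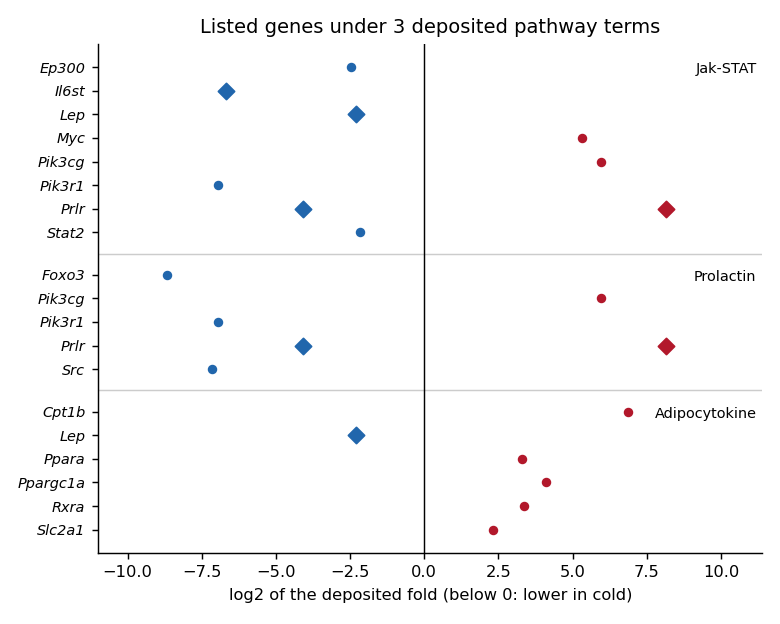
Log2 of the deposited fold of the listed genes under the Jak-STAT, prolactin and adipocytokine terms of the deposited annotation, above 0 where the site was higher and below 0 where it was lower in cold. Diamonds are Lep, Prlr and Il6st with each of their sites, circles the strongest site of the other genes. Lep, at 2.31 below 0, is the lower gene among the 6 of the adipocytokine term, and Prlr has a point on each side, 4.09 below and 8.13 above.

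Genes of other programmes and cell types were listed in the same tables. The lists were chosen with earlier results of these data known, so their counts are descriptions only. Of all annotated coding genes, 1.01% had a higher and 1.66% a lower site. Of 15 thermogenic genes 8 had a site, all higher in cold, led by Otop1 (1137.8-fold), Dio2 (567.9-fold) and Letmd1 (251-fold). The folds of Otop1 and Dio2, like that of the higher Prlr site, are best not read as precise values. The precision of the other folds is unknown. Of 14 skeletal muscle markers 8 were listed higher, led by Neb (169-fold), Pygm (136-fold) and Ttn (123-fold). Of 12 macrophage markers 4 were lower, led by Ccr2 (139-fold), C1qa (9.17-fold) and Lyz2 (6.94-fold), and so were 4 of 12 preadipocyte markers, led by Prrx1 (13.8-fold), Col3a1 (8.33-fold) and Dcn (4.85-fold). Of 18 epithelial and mammary markers Epcam was listed, 93.8-fold lower, and none of 11 lymphocyte or 7 endothelial markers was. Levels in each library were not analysed here, so the labelled tissue could not be checked against its markers, and the part of these cell types in the 5 folds was not tested.

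The fold compares m6A IP signal between the temperatures, and whether it was corrected for input is not given in the sources used here. A change in the amount of a transcript and a change in its methylation cannot be told apart for these sites. No library value was analysed, so no fold has a replicate spread.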

How the data were processed

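MeRIP-seq of iWAT gave 12 libraries in 4 groups of 3, taken from the sample titles. The study's methods give cutadapt for trimming, Hisat2 for alignment to mm10, MACS2 for peaks and diffReps for differential sites. In the submitters' processing notes the tools are MACS2, HOMER and, as aligner, Bowtie 0.12.2, with the builds mm8 and mm10. The deposited coordinates fit mm10, in which 98.5% of the sites overlap the gene named.

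The authors deposited, for each site higher or lower in C against T, a fold (a ratio above 1, larger group over smaller), a p-value, an FDR and the −log10 of the p-value as a score. Positions and site length in bp are deposited too. The letters C and T were taken to mean cold and thermoneutral, from the initials in the sample titles. All of these are columns of the authors' own comparison. They are printed as the authors' values because the sites were defined by them, and no test was added to them. Depth and precision are unknown, since no library values were used. The smallest fold was 4.01, the largest p 9.65e-06 and the shortest site 300 bp.

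Starts were read as counted from 0 and are printed counted from 1. Like 586 of the 739 starts, all 5 starts of these sites fall on a 20 bp grid, so they may be 1 base off. Sites were placed by their midpoint on GENCODE M21 and RefSeq transcripts of GRCm38, and sequences were read from the RefSeq genome, in Python 3.11.15 with pysam 0.24.0, pandas 2.3.3, numpy 2.4.6 and scipy 1.17.1, and plots were drawn with matplotlib 3.10.9. Placing was tested on simulated transcripts. The members and the 16 gene lists (232 symbols) were chosen with earlier results of these data known. Named are every site of the 4 genes, every listed gene of the hormone, gp130, JAK-STAT, fat and SERCA lists and of the pathway terms, up to 3 genes with the largest folds of the other lists, and the 3 genes nearest in fold. Some genes that this rule would name are not reported here. Alternatives were a fold of at least 8, a p of at most 1e-07, gene by position, other transcripts, other motifs and sites widened by 50 bases.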

Additional observations from a re-analysis of the deposited data

How the results depend on the processing

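With sites limited to a p of at most 1e-07, 2 of the 4 lower sites remained, those of Il6st and Prlr, and the share of all listed sites that were lower in cold moved from 59.3% (95% Wilson interval 55.7% to 62.8%) to 63.8%. The Wilson interval takes the sites as independent, though some genes gave several, such as Ttn with 28, and it measures no spread between mice. Over genes with a single direction the share lower was 62.9%. Counting DRACH in place of GGAC gave 50 in place of 10 motifs in the 5 sites. With a fold of at least 8, 3 lower sites and 1 higher site remained, without Lep, and 28 in place of 34 genes of the lists had a site. Assigning genes by position changed neither count. The number of sites in the 3′ UTR was 5 in place of 4 on any coding transcript, by any overlap, or on the transcript named in the table, the last chosen after seeing the data. Starts counted from 1, and sites widened by 50 bases, left 10 GGAC. Leaving out each replicate was not run and no paired analysis was possible because the files used hold only the finished comparison, with no value of a single library. The tables list no site under a fold of 4.01, so smaller differences at these genes are not seen.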

Other observations

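The deposited annotation for cytokine and cytokine receptor interaction covered 10 listed genes, among them Lep, Il6st and Prlr. Of their 15 sites 14 were lower in cold, and the higher site of Prlr was the exception. Of all listed sites, with or without a deposited pathway term, 59.3% were lower. The 4 sites of Lep, Il6st and Prlr among the 15 were chosen on this contrast, and Egfr alone gave 4. Others were the growth factor and morphogen receptors Egfr (220.5-fold lower), Bmpr1a (939.6-fold) and Acvr1 (4.95-fold), the chemokine receptor Ccr2 (139-fold), the chemokine Cxcl14 (154-fold) and Csf1, the growth factor of macrophages (10.99-fold). Ccr2 was also on the list of macrophage markers. The median log2 fold of the strongest sites of the 10 genes was 6.91, against 4.20 over all listed genes. Lep, Il6st and Prlr are among the 10, Prlr by its higher site, so nothing is read from that difference. The folds of Egfr and Bmpr1a, like that of the higher Prlr site, are best not read as precise values. That of the others is of unknown precision.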
